A study of Mus musculus with 6 samples.

Results

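The 100 most abundant genes of wildtype juvenile testis were chosen by their mean CPM, the expected count of a gene per 1000000 expected counts of its library, over 3 wildtype testes. They were 100 of 33218 genes with a count, or 0.301% of them, and all 100 passed the filter on low counts that left 21414 genes for testing. Whole testes of C57Bl6J mice were taken at 25 dpp (days post-partum), 3 of them wildtype and 3 mutant for *Adad2*, and their RNA was sequenced. The mutant is homozygous for em3, an allele made by CRISPR and carried in every cell, which disrupts *Adad2*. The comparison of genotypes asks how loss of ADAD2 alters the message content of the late juvenile testis. The labels do not say that the testes came from separate animals, so a p-value here measures the spread between these 6 samples.

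ADAD2 is an adenosine deaminase domain protein of male germ cells, found mainly in pachytene spermatocytes, the mid-meiotic cells in which homologous chromosomes are fully paired. Late juvenile testes hold the first wave of germ cells, which has passed through meiosis into round spermatids, together with spermatogonia and the Sertoli, Leydig and peritubular cells of the soma. Spermatocytes and round spermatids transcribe a large part of the genome, so a whole-testis library is spread over many genes. The most abundant messages of a whole tissue can come from a gene used by every cell or from a gene used strongly by a common cell type. In such bulk samples, fewer cells of a type and less RNA per cell cannot be told apart.

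The tables list genes under identifiers of the authors' own transcriptome and give neither symbols nor lengths. The members are therefore named by their abundance rank in wildtype, from 1 for the most abundant. Their roles, the level of *Adad2*, the defining markers of the testicular cell types and their sequences were not analysed here. Because a long message yields more reads than a short one at the same number of molecules, the ranks order reads and not molecules, and no level below is compared between genes per length.

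The 6 libraries held between 16133264 and 22179778 expected counts. Among the wildtype testes, wildtype replicate 1 lay nearest to the mutant testes. It was not set apart from the other wildtype testes. By the median log2 difference, without regard to sign, replicates 1 and 2 lay 0.11 and 0.12 from replicate 3. They lay 0.20 from each other. The CPM of wildtype replicate 1 was nearer to the mutant mean than to the mean of the other wildtype testes for 65 of the 100 members. This was so for 54.0% of genes tested. The same count was 20 for wildtype replicate 2 and 20 for wildtype replicate 3, against 34.0% and 35.1% of genes tested. It was 19, 18 and 37 for mutant replicates 1 to 3, against 26.7%, 27.0% and 37.6%. Wildtype replicate 1 also shares the first number of its identifier with mutant replicate 1, while the other wildtype testes share another number and the other mutant testes a further one. What that number stands for is not given, and apart from the pair of first replicates it cannot be told apart from genotype. The main results are given with and without wildtype replicate 1. Leaving out the wildtype testis nearest to the mutant testes can by itself widen a genotype difference.

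The members took up a similar portion of the library in both genotypes. The wildtype testes, replicates 1 to 3, gave them 16.3%, 17.0% and 16.8% of their counts, and the mutant testes 16.6%, 16.6% and 16.9%. The means were 16.7% ± 0.350 and 16.7% ± 0.163 (SD, n = 3), and the mutant mean was above the wildtype mean by 0.0187 percentage points, less than the spread between testes. The 95% Wilson interval of each share reached no more than 0.0181 points to either side, which covers counting error only. Without wildtype replicate 1 the mutant mean was below the wildtype mean, with a difference of -0.222 points. Since the wildtype testes chose the members, no test was made of this difference.

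When each testis chose its own 100 most abundant genes, so that no genotype set the list, the shares of the genotypes overlapped. They were 16.3%, 17.0% and 16.8% in wildtype and 16.7%, 16.7% and 17.0% in mutant testes. The difference of 0.110 points gave p = 0.9 in a two-sided exact permutation test over testes, in which 3 against 3 cannot give a p below 0.1. With 200 genes chosen in each testis the shares did not overlap, at 22.0%, 22.1% and 22.2% in wildtype and 22.7%, 22.7% and 22.8% in mutant testes. That difference of 0.650 points reached the smallest p this design allows, 0.1.

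**Figure D1:**
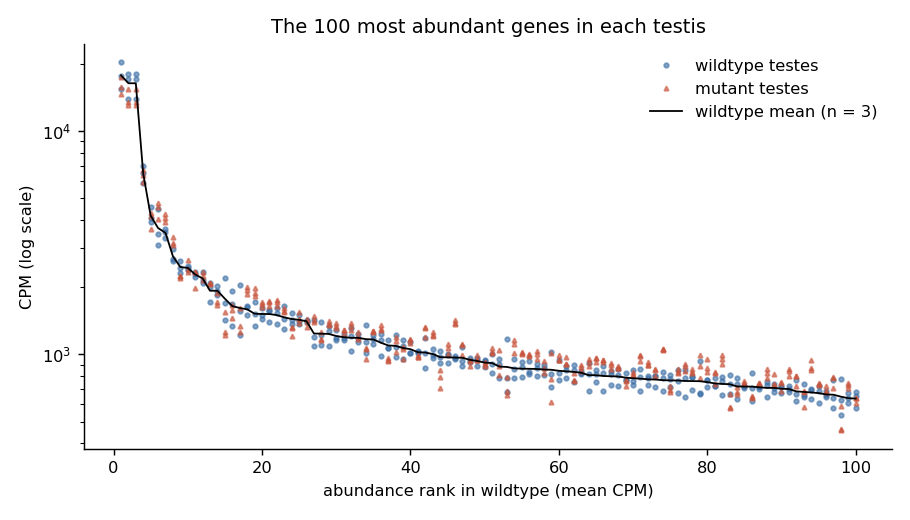
CPM of the 100 members (vertical axis, log scale) against their abundance rank in wildtype (horizontal axis), with circles for the 3 wildtype testes, triangles for the 3 mutant testes and a line for the wildtype mean. Ranks 1 to 3 stand above all others in every testis, and from rank 4 the decline is gradual down to a wildtype mean of 634 CPM at rank 100.

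Within the members, the counts were concentrated at the very top. The first 14 of the 100 members held 50% of all member counts in wildtype. Over the whole library, 1321 of the 33218 genes with a count held 50% of all wildtype counts, a smaller portion of the list. The mean CPM of rank 1 was 28.0 times that of rank 100, and that of rank 4 was 10.2 times. The largest step in the plot of CPM against rank lay between ranks 3 and 4, where the mean fell by a ratio of 2.54. The first 3 members alone held 4.33%, 5.64% and 5.16% of the counts in wildtype and 4.27%, 4.07% and 4.81% in mutant testes. Their mean share was 5.04% ± 0.663 (SD, n = 3) over wildtype and 4.38% ± 0.380 over mutant testes, and the genotypes overlapped because wildtype replicate 1 was lower than mutant replicate 3. Without wildtype replicate 1 the wildtype mean was 5.40%, and the genotypes did not overlap.

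Ranks 4 to 100 showed the opposite order. They held 12.0%, 11.3% and 11.6% of the counts in wildtype and 12.3%, 12.6% and 12.1% in mutant testes. Every mutant testis was above every wildtype testis, with means of 11.6% ± 0.320 and 12.3% ± 0.233 (SD, n = 3), and the wildtype mean was 11.5% without replicate 1. The near equality of the whole share was thus the sum of a lower value for ranks 1 to 3 and a higher value for the remaining members. The cumulative share of the first 10, 20 and 50 members differed by -0.526, -0.513 and -0.317 points, mutant minus wildtype, and only with about 100 members did the difference approach 0.

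Rank 1 measured 15373, 20267 and 17558 CPM in wildtype and 15661, 14673 and 17380 CPM in mutant testes, replicates 1 to 3 in order here and below. It was the most abundant gene of every testis. Its genotypes overlapped, and the log2 fold-change of mutant over wildtype was -0.12 ± 0.11 (SE), with an adjusted p of 0.527 by edgeR's quasi-likelihood test.

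Ranks 2 and 3 had identical counts in all 6 testes. Each measured 13957, 18067 and 17017 CPM in wildtype and 13538, 13012 and 15343 CPM in mutant testes. Mutant replicates 1 and 2 were lower than every wildtype testis, and mutant replicate 3 lay above wildtype replicate 1. The log2 fold-change was -0.19 ± 0.11 (SE), with an adjusted p of 0.293 by edgeR. Whether reads were shared between these entries was not tested, and their separate levels are uncertain. The sum of the pair was 2.79%, 3.61% and 3.40% of the counts in wildtype and 2.71%, 2.60% and 3.07% in mutant testes, which was between 1.73 and 1.94 times rank 1. Counted as 1 gene, the pair would be the most abundant of every testis. No other member had identical counts with another gene.

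Rank 4 measured 5877, 6982 and 6451 CPM in wildtype and 5889, 6661 and 6359 CPM in mutant testes. The genotypes covered nearly the same range, and the log2 fold-change was 0.01 ± 0.09 (SE), with an adjusted p of 0.948 by edgeR. Rank 5 measured 4547, 3920 and 4064 CPM in wildtype and 4161, 4312 and 3646 CPM in mutant testes. It too overlapped, with a log2 fold-change of -0.01 ± 0.10 (SE) and an adjusted p of 0.971 by edgeR.

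Rank 6 ran in the other direction from the first 3. It measured 4476, 3094 and 3461 CPM in wildtype and 4749, 4559 and 4051 CPM in mutant testes, and became rank 5 in each mutant testis. Wildtype replicate 1 was above mutant replicate 3, so the genotypes overlapped. Its log2 fold-change was 0.32 ± 0.13 (SE), with an adjusted p of 0.155 by edgeR, and 0.54 with an adjusted p of 0.00385 without wildtype replicate 1.

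Rank 7, the most abundant member that was called changed, measured 3626, 3323 and 3546 CPM in wildtype and 4095, 4247 and 3924 CPM in mutant testes. Every mutant testis was above every wildtype testis, and the log2 fold-change was 0.27, with an adjusted p of 0.0492 by edgeR. It was also the member with the most isoforms, 43 of them with a count, though only 2 held at least 5% of its counts.

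**Figure D2:**
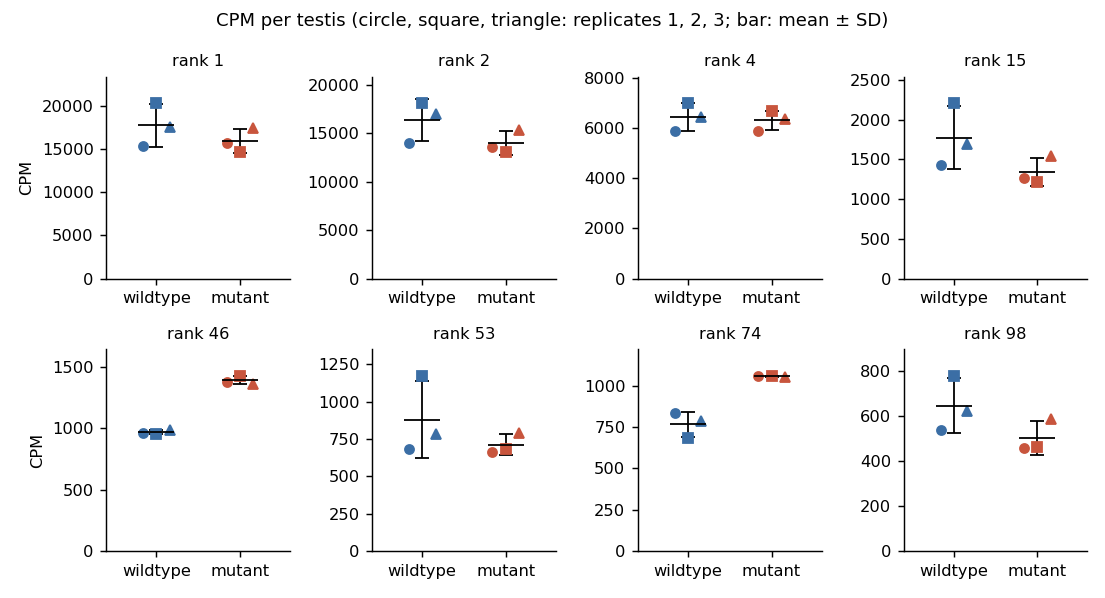
CPM of 8 members in each testis, on vertical axes that start at 0, with a circle, square and triangle for replicates 1 to 3 of a genotype and bars for the mean ± SD. Ranks 46 and 74 show mutant testes above all wildtype testes, whereas ranks 1, 2, 15, 53 and 98 show wildtype replicate 1 within the range of the mutant testes and wildtype replicate 2 highest.

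Across the whole list, members were called higher in mutant testes and none was called lower. In the edgeR test, with p adjusted by Benjamini-Hochberg over all 21414 genes, 15 members rose and 0 fell at an adjusted p below 0.05, beside 3.50% of tested genes called higher and 8.27% called lower. At an unadjusted p below 0.05 there were 49 members, 5 of them lower, against 26.3% of genes tested. DESeq2 called 34 members higher and 0 lower, beside 5.49% and 5.80% of its genes. Limma-voom called 21 higher and 1 lower, rank 44, beside 3.88% and 8.35%. The wildtype testes that chose the members are also the controls of this comparison, so these counts describe the members and are not support for a difference. With the identifier number as a block, only rank 46 was called, beside 0.453% of genes called higher and 3.89% called lower. Leaving out a testis moved the count of called members between 3 and 51, while the share of tested genes called higher moved between 0.978% and 10.7%.

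The differences were small. No member differed by 1.5-fold or more, and 78 lay within 1.2-fold in either direction, against 62.5% of genes tested. The median log2 fold-change of the members was 0.15, with quartiles of -0.01 and 0.25 and a range from -0.36 to 0.56, whereas the median over genes tested was -0.06. Of the members, 74 had a positive log2 fold-change, against 41.4% of genes tested. The median standard error was 0.08 on the log2 scale. DESeq2's size factors placed the medians at 0.20 for members and -0.01 for tested genes, and library size alone placed them at 0.11 and -0.10. The member median stood above the tested median by 0.20 to 0.21 under these scalings, by 0.09 with the identifier block, where the member median was 0.08, and by 0.13 without wildtype replicate 2.

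**Figure D3:**
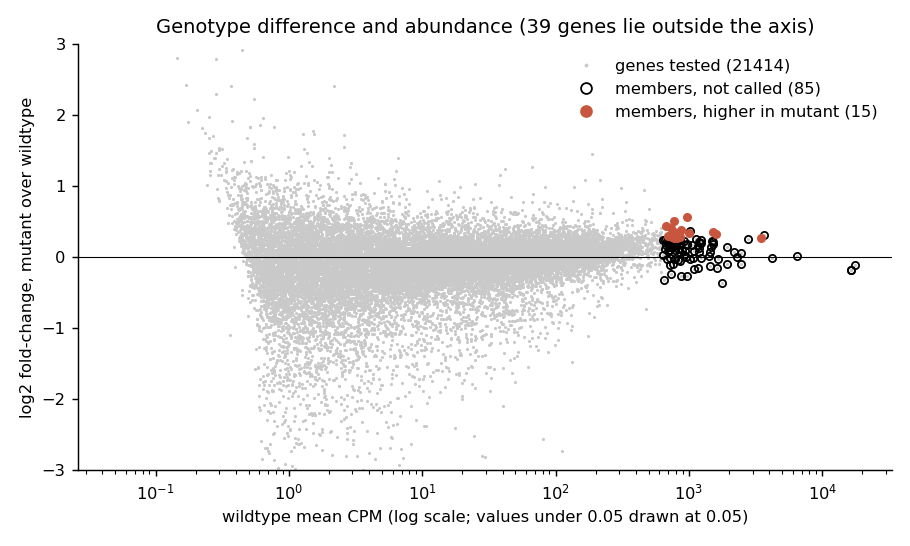
Log2 fold-change of mutant over wildtype (vertical axis, edgeR) against wildtype mean CPM (horizontal axis, log scale) for the 21414 genes tested, with the 85 members not called as open circles and the 15 called members as filled circles. Called members lie above 0 at folds of 1.20 to 1.48, the 5 most abundant members lie near or below 0, and 39 genes lie outside the vertical axis.

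The higher values lay mostly below the top of the list. The median log2 fold-change was 0.00 for ranks 1 to 10, 0.11 for ranks 11 to 50 and 0.18 for ranks 51 to 100. Called members numbered 5 in ranks 1 to 50 and 10 in ranks 51 to 100. The next 100 genes by wildtype abundance were much like the lower members, with a median of 0.16, 19 genes called higher and 0 called lower. The members were not tested against them.

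The 15 called members lay at ranks 7, 18, 19, 43, 46, 54, 55, 65, 71, 72, 74, 80, 82, 91 and 94. Their log2 fold-changes were between 0.27 and 0.56, that is folds of 1.20 to 1.48, with adjusted p from 0.000618 to 0.0492 by edgeR. Together they held 1.63% of wildtype and 2.01% of mutant counts. In all 15 the lowest mutant testis was above the highest wildtype testis, all 15 were also called by DESeq2, and all 15 were called without wildtype replicate 1. Between the testes that share an identifier number, the CPM of mutant replicate 1 over wildtype replicate 1 was between 0.14 and 0.52 on the log2 scale in the 15, a sign that the lack of overlap already sets. Ranks 46, 74 and 94 were called whichever testis was left out.

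XLOC_063411, at rank 46, had the largest rise. It measured 963, 953 and 988 CPM in wildtype and 1380, 1427 and 1362 CPM in mutant testes. The wildtype testes lay within a narrow band, and each mutant testis was well above it. The log2 fold-change was 0.56 ± 0.07 (SE), with an adjusted p of 0.000618 by edgeR, and the gene moved to rank 25 in the mutant mean. All other settings tried for it without a block called it, with adjusted p from 2.09e-17 by DESeq2 to 0.00733 by edgeR without mutant replicate 2. With the identifier block, that is from the first replicates alone, the log2 fold-change was 0.55.

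XLOC_027061, at rank 74, measured 832, 682 and 786 CPM in wildtype and 1057, 1060 and 1050 CPM in mutant testes. The wildtype values were spread and the mutant values were close together. The log2 fold-change was 0.50 ± 0.08 (SE), with an adjusted p of 0.00345 by edgeR, and the gene moved to rank 44 in the mutant mean. With the identifier block, again from the first replicates alone, the log2 fold-change was 0.38. Rank 94 measured 696, 633 and 697 CPM in wildtype and 871, 941 and 854 CPM in mutant testes, with a log2 fold-change of 0.44 ± 0.08 (SE) and an adjusted p of 0.00418 by edgeR.

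No member passed the test in the lower direction, and the nearest to it was rank 44. It measured 1032, 972 and 913 CPM in wildtype and 789, 711 and 853 CPM in mutant testes. Every mutant testis was below every wildtype testis, and the log2 fold-change was -0.27 ± 0.08 (SE), with an adjusted p of 0.0542 by edgeR. The most negative value belonged to rank 15, which measured 1425, 2206 and 1696 CPM in wildtype and 1260, 1221 and 1543 CPM in mutant testes. Mutant replicate 3 was above wildtype replicate 1, and the log2 fold-change was -0.36 ± 0.14 (SE), with an adjusted p of 0.125 by edgeR. Without wildtype replicate 1 it was called lower, at -0.44 with an adjusted p of 0.0189, as were ranks 83 and 98.

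Counting members whose genotypes did not overlap gave the same direction. In CPM, 37 members had every mutant testis above every wildtype testis, beside 10.1% of genes tested, and 5 had every mutant testis below, beside 21.5%. The higher 37 had ratios of mean CPM, mutant over wildtype, from 1.04 to 1.44, and began at rank 7. The lower 5 were ranks 9, 24, 37, 41 and 44, with ratios from 0.807 to 0.958. These counts moved with the scaling of the libraries, and so did the shares of all genes tested. With TMM they were 46 and 4, beside 13.2% and 18.4% of genes tested. With upper-quartile scaling they were 54 and 2, beside 17.2% and 15.3%, and with DESeq2 size factors 55 and 2, beside 18.0% and 15.0%. Without wildtype replicate 1 they were 56 and 16, beside 17.5% and 37.2%. In CPM over all 6 testes, 43 of the next 100 genes by wildtype abundance were higher without overlap and 7 lower. The direction was therefore not particular to the members.

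Without wildtype replicate 1, the higher count in CPM went from 37 to 56 and the lower count from 5 to 16. With fewer testes a lack of overlap is easier to reach, and the shares of genes tested rose as well. In the edgeR test without wildtype replicate 1, 48 members were called higher and 3 lower. Of the genes tested, 10.7% were called higher and 10.2% lower in that fit, and the median log2 fold-change of the members was 0.24. To keep the testis that chose the genes out of the fit, the 100 most abundant genes of each wildtype testis in turn were tested in the other 5. The genes chosen in wildtype replicate 1 shared 93 of their 100 with the members, and 53 were called higher and 1 lower by edgeR. The genes chosen in wildtype replicate 2 shared 96, and 13 were called higher and 0 lower. In that fit 2.78% of all genes were called higher and 7.81% lower. Those chosen in wildtype replicate 3 shared 97, and 3 were called higher and 0 lower, beside 1.26% and 5.11% of all genes. The direction was common to the 3 fits and the number was not, with medians of 0.27, 0.11 and 0.15 on the log2 scale. The 3 fits share the mutant testes and most of the genes, so they are not independent of each other. Each choosing testis also shares its identifier number with a testis in its fit, and a tie through that number is not removed.

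Counting error was small for the members beside their spread between testes. The coefficient of variation (CV, SD over mean of CPM) had a median of 7.85% over the wildtype testes and 3.83% over the mutant testes, whereas counting alone gives the members a median CV of 0.777% in wildtype. Only 3 members had a wildtype CV under 2 times that of counting. The CV was higher in wildtype than in mutant testes for 78 members, against 68.5% of genes tested. Over wildtype replicates 2 and 3 alone the median CV was 5.84%, and it was higher than the mutant CV for 67 members, against 51.8% of genes tested. The next 100 genes had medians of 7.59% and 3.31%, and all genes tested had medians of 12.9% and 8.13%.

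**Figure D4:**
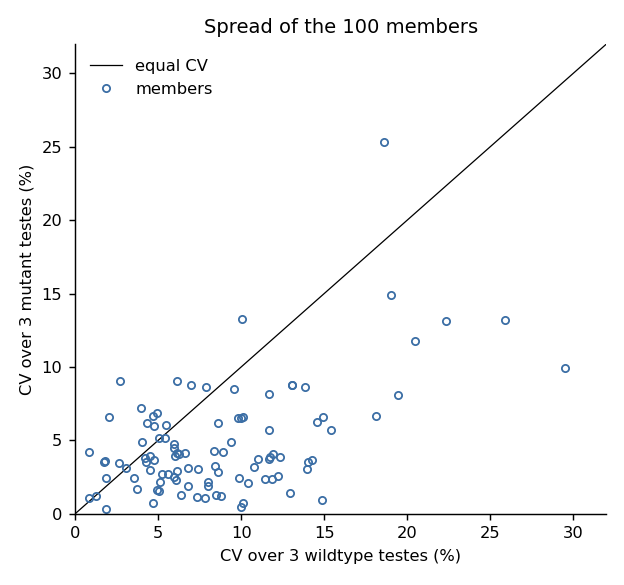
CV of CPM over the 3 mutant testes (vertical axis, percent) against CV over the 3 wildtype testes (horizontal axis, percent), 1 circle for each of the 100 members, with a line where the CVs are equal. Most members, 78, lie below the line, and 4 wildtype CVs exceed 20% against 1 mutant CV.

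The steadiest member in wildtype was rank 26, which measured 1395, 1418 and 1409 CPM in wildtype and 1401, 1321 and 1435 CPM in mutant testes. Its wildtype CV was 0.827%, and its log2 fold-change was 0.02 with an adjusted p of 0.885 by edgeR. The most variable was rank 53, which measured 681, 1173 and 783 CPM in wildtype and 660, 683 and 792 CPM in mutant testes. Its wildtype CV of 29.5% came from replicate 2, and the other wildtype testes lay within the mutant range. Ranks 15, 17 and 79 also had a wildtype CV above 20%. In mutant testes the CV ran from 0.339% at rank 87, with 739, 743 and 743 CPM, to 25.4% at rank 59, with 610, 1012 and 774 CPM.

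The spread among wildtype testes was not arbitrary from member to member. Wildtype replicate 3 lay between the other wildtype testes in 75 members, against 53.0% of genes tested. In 55 of these 75 replicate 1 was highest and replicate 2 lowest, and in the remaining 20 the order was turned. Wildtype replicate 2 had the lowest CPM of all 6 testes in 60 members, against 19.0% of genes tested, and mutant replicate 2 the highest in 40, against 11.3%. The median difference between wildtype replicates 1 and 2, without regard to sign, was 0.20 on the log2 scale, and between other pairs of the same genotype it was at most 0.12.

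This order ran along with the genotype difference. Of the 15 called members, wildtype replicate 1 was the highest wildtype testis in 12, and wildtype replicate 2 the lowest in 14. The genotypes of the 15 do not overlap, so their lowest testis is a wildtype one in any case. Over all 100 members, wildtype replicate 2 was the lowest wildtype testis in 66. Across the 100 members, the log2 ratio of wildtype replicate 2 over 1 had a correlation of -0.68 with the log2 ratio of the mutant mean over wildtype replicate 3. These ratios have no library in common, but all are scaled to the library total, and genes are not independent replicates. The part of this order among wildtype testes in the genotype difference was not tested.

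Ranks 17 and 98 illustrate the members in which the order was turned. Rank 17 measured 1221, 2053 and 1567 CPM in wildtype and 1261, 1338 and 1614 CPM in mutant testes. Wildtype replicate 1 was the lowest of the 6 and replicate 2 the highest. Rank 98 measured 537, 780 and 624 CPM in wildtype and 457, 463 and 589 CPM in mutant testes, with a log2 fold-change of -0.32 and an adjusted p of 0.143 by edgeR. Wildtype replicate 1 lay within the mutant range for 33 members, replicate 3 for 21 and replicate 2 for 11, against 33.9%, 30.0% and 21.2% of genes tested.

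The order of the members was well kept in broad terms, while neighbours in wildtype often changed places between wildtype testes. Log mean CPM in mutant testes had a correlation of 0.98 with that in wildtype across the members. The rank moved by a median of 6 places between the genotype means, and by 10 places or fewer in 72 members. Of the 99 pairs of neighbouring ranks, however, 12 had the same order in all wildtype testes and 8 in all 6 testes. Those 8 were ranks 1 and 2, 3 and 4, 4 and 5, 7 and 8, 8 and 9, 10 and 11, 12 and 13, and 49 and 50. In the mutant testes alone, 46 pairs stood in the order of the wildtype ranks in every testis. Pairs that were neighbours in the wildtype mean have close wildtype levels by the way they were ranked.

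The list itself was largely common to the 6 testes. The 100 genes of highest mean CPM in mutant testes shared 91 with the members. In the testes taken singly, 93, 96 and 97 members were in the own first 100 of the wildtype testes, and 90, 91 and 93 in those of the mutant testes. There were 84 genes in the first 100 of all 6 testes, every one a member, and 120 genes in the first 100 of any testis. The CPM needed to enter the first 100 was 677, 633 and 648 in wildtype and 727, 718 and 705 in mutant testes, with every mutant testis above every wildtype testis.

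Since 91 genes were shared, 9 were exchanged between the lists. The 9 members absent from the mutant list were ranks 53, 75, 83, 84, 86, 93, 96, 98 and 100. None of them was called by edgeR, and their ratios of mean CPM ran from 0.778 to 1.05. Rank 98 moved furthest, to rank 206 of the mutant mean, and it held rank 246 in mutant replicate 2. The 9 genes that took their places came from wildtype ranks down to 200, and 6 of them from ranks down to 119. Of these, 7 were called higher by edgeR and 8 had genotypes that did not overlap. The gene at wildtype rank 200 measured 499, 419 and 469 CPM in wildtype and 863, 869 and 864 CPM in mutant testes, a log2 fold-change of 0.94 with an adjusted p of 0.00019 by edgeR. That genes leaving the list tend to have lower and genes entering it higher mutant values is set by the way the lists were made.

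The threshold of the list fell between genes of nearly equal level. Rank 100 measured 573, 678 and 651 CPM in wildtype, a mean of 634.1, and 606, 637 and 638 CPM in mutant testes. The next gene, just outside, measured 603, 630 and 668 CPM in wildtype, a mean of 633.8, and 705, 741 and 703 CPM in mutant testes. The wildtype values of both overlap, so which of them is a member rests on less than the spread between testes.

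**Figure D5:**
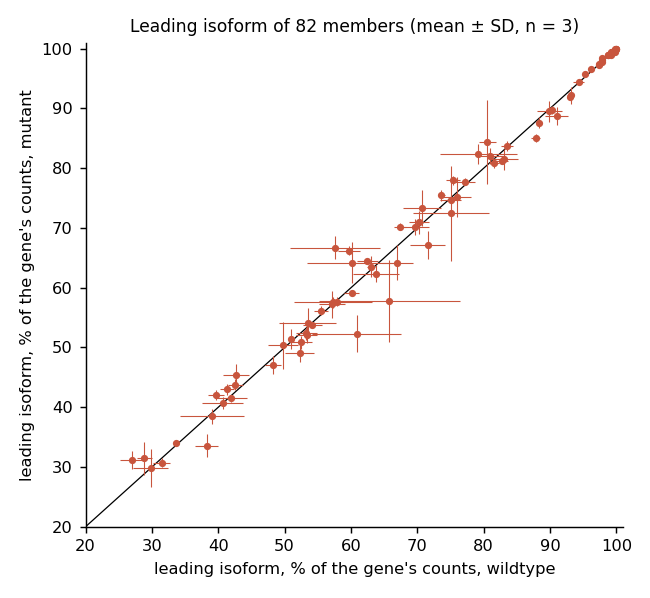
Share of a gene's counts on its leading isoform, mutant (vertical axis, percent) against wildtype (horizontal axis, percent), for the 82 members with more than 1 isoform; points are means and bars are ± SD over 3 testes, with a line of equality. Most points follow the line from a share of 26.9% to nearly 100%, and the largest difference is 9.15 points.

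The members had a median of 6 isoforms with a count, against 3 for genes tested, and a rare isoform is more easily seen in a gene of high count. Counting only isoforms with at least 5% of the gene's counts, the median was 2 for members and 2 for genes tested, and 40 members had 1 such isoform, against 37.3% of genes tested. Of the members, 18 had a single isoform, against 28.2% of genes tested, and 9 of these 18 were among ranks 1 to 20, ranks 1 to 5 included. None of the 18 was called by edgeR, and their median log2 fold-change was -0.00. All 15 called members were among the 82 with several isoforms, whose median was 0.17. The difference between these groups of members was not tested. Calls were not counted by number of isoforms over all genes tested, so the split of calls has no background share.

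In most members 1 isoform led in every testis. The same isoform held the largest share in all 6 testes for 95 members, and for 77 of the 82 with several isoforms, against 67.9% of tested genes with several isoforms. The other genes tested have lower wildtype CPM than the members, and this comparison was not matched for count. The wildtype share of a member's leading isoform had a median of 81.3%, exceeded 90% in 43 members and was under 50% in 15. The 5 exceptions were ranks 33, 80, 87, 88 and 94. In rank 94 the isoform that led over the testes together held 33.6%, 42.8% and 40.8% in wildtype and 40.0%, 37.9% and 37.6% in mutant testes. In wildtype replicate 1 another isoform held 48.9%.

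Leading shares differed little between genotypes, as the plot of leading isoform shares shows. In 18 of the 82 members, or 22.0%, the shares of the genotypes did not overlap, beside 15.1% of tested genes with several isoforms, with 14 higher in mutant testes and 4 lower. The median difference over the 82, without regard to sign, was 0.637 percentage points. In rank 37, which had the largest difference, the leading isoform held 64.6%, 51.0% and 57.1% in wildtype and 67.3%, 68.3% and 64.7% in mutant testes. Wildtype replicate 1 lay just under the lowest mutant testis. In rank 58 the shares were 58.2%, 61.5% and 59.3% in wildtype and 65.4%, 66.5% and 66.7% in mutant testes, so that the gap between genotypes was wider than the spread within either. The count of the whole gene had a log2 fold-change of 0.07 with an adjusted p of 0.576 by edgeR.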

How the data were processed

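RNA of 3 wildtype and 3 *Adad2* mutant whole testes of C57Bl6J mice at 25 dpp was sequenced in 100 bp paired-end runs. By RSEM, the authors computed the expected counts of genes and isoforms, against an extended testis transcriptome (GRCm38, per the submitters' processing notes) and deposited them without normalization. The RSEM version is not given in the sources used here. The authors' deposited comparison by EBSeq holds posterior probabilities and fold-changes and was not used. The gene table lists 42096 genes, beside 92 spike-in RNAs with a count of 0 in every testis.

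Samples were grouped by genotype label, and columns were matched by the identifier that opens each title. CPM was computed from column totals. The members and every list, rule and test were chosen with earlier results of these data known. Members are named by wildtype rank, and by identifier only for the called members with the largest changes. Ranks 1 to 5, rank 100 and the gene after it, and those of highest and lowest wildtype CV are described in full. Ranks 6, 7, 15, 17, 37, 44, 58, 59, 87, 94, 98 and 200 were added after their values were seen.

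After rounding, filterByExpr and TMM scaling, genotype was tested as the sole term by the quasi-likelihood test of edgeR 4.0.16 in R 4.3.3, with Benjamini-Hochberg adjustment over all 21414 genes tested. EBSeq was not installed. Standard errors were derived from the test statistic. The test was tried on simulated data first. Alternatives were DESeq2 1.42.0, limma-voom (limma 3.58.1), other scalings, no filter, unrounded counts, the first number of the identifier as a block, each testis left out, and other sizes of the list. Merging genes with identical counts was added after the data were seen, as were upper-quartile scaling for genes chosen in a single testis and leaving out each testis in the count of members without overlap. The 105316 isoforms with a count were assigned to genes from the order of the tables and the sums of their counts, and 43 genes had a second possible placement.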

Additional observations from a re-analysis of the deposited data

How the results depend on the processing

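The count of changed genes, 2521, was 930 with the first number of the identifier as a block and between 1172 and 4637 with a testis left out. The share of higher genes among these calls was 29.8%, against 40.1% with upper-quartile scaling and 48.6% by DESeq2. The 15 changed members, all higher, became 34 by DESeq2, beside 5.49% and 5.80% of all genes called higher and lower. With no filter they were 24, of them 23 higher, beside 2.83% of genes higher and 5.93% lower. There were 5 among the first 50 genes and 34 among the first 200. With a testis left out they were between 3 and 51, 3 to 48 of them higher. The share of all genes called higher then ran from 0.978% to 10.7%. Members called lower numbered 0, and 1, rank 44, by limma-voom, with library size alone and with no filter, and between 0 and 3 with a testis left out. The count was 51 without wildtype replicate 1, 3 without wildtype replicate 3, mutant replicate 1 or mutant replicate 2, and 8 without mutant replicate 3. The median log2 fold-change of members was between 0.118 and 0.245 with a testis left out, the latter without wildtype replicate 1, and was 0.08 with the block.

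The difference in share on the members, 0.0187 points, was -0.526, -0.513, -0.317 and 0.547 with 10, 20, 50 and 200 genes, and between -0.222 and 0.170 with a wildtype testis left out. For each testis's own genes it was -0.517, -0.261 and 0.650 points with 10, 50 and 200 genes, with exact permutation p of 0.3, 0.6 and 0.1. The 42 members without overlap, beside 10.1% of genes tested higher and 21.5% lower, became 43 to 72 with a testis left out. The 43 came without mutant replicate 1, beside 12.1% of genes tested higher and 25.2% lower. The 72 came without wildtype replicate 1, beside 17.5% and 37.2%. XLOC_027061 had a log2 fold-change of 0.38 with the block. The cause of these changes was not tested, beyond the fewer samples or other genes that a setting uses. No paired analysis was possible because the labels give no replicate numbers and the genotypes share only 1 identifier number. Depth did not limit the members, whose counting CV was at most 0.933% in wildtype.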

Other observations

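Further down the list of wildtype abundance, the median log2 fold-change fell towards that of all genes. Among ranks 201 to 500 it was 0.14, with 38 genes called higher and 2 lower by edgeR. Among ranks 501 to 1000 it was 0.08, with 51 called higher and 21 lower.

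Genes with identical counts in all 6 testes formed 37 sets of 97 genes, among 21226 genes with at least 60 counts over the testes. Beside ranks 2 and 3, the most abundant of them had a wildtype mean of 137 CPM.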
